A study of Mus musculus with 18 samples.

Results

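The genes described here are 10 transcripts known from the microglia that gather around amyloid plaques, Cst7, Itgax, Clec7a, Gpnmb, Lgals3, Spp1, Cd9, Csf1, Lpl and Axl. They were chosen by gene name from the count table of 55487 genes, and all 10 were present and passed the filter on low counts that left 17414 genes. The counts came from bulk RNA of the frontal cortex of 18 mice aged 9 to 10 months. There were 6 WT, 6 APP/PS1 and 6 APP/PS1/FTnKO mice, with 3 females and 3 males of each genotype. APP/PS1 mice carry the transgenes of that line, APPswe among them, and develop amyloid plaques. The methods of the study give all mice as littermates homozygous for a floxed allele of Fntb, the β-subunit of farnesyltransferase (FT), the enzyme that attaches a farnesyl lipid to proteins such as Ras, while the record of the data names C57BL/6J for the WT mice, so that the background of the WT group is not settled. APP/PS1/FTnKO mice carry in addition a Cre recombinase under the CaMKIIα promoter, which is active in forebrain neurons after birth. The deletion is thus aimed at neurons and not at microglia.

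Microglia are the resident macrophages of the brain. Around plaques they take up amyloid, lipid and cell debris, and they turn on a programme of genes for phagocytosis, lysosomal digestion and lipid handling, much of which depends on the lipid receptor Trem2 and its adaptor Tyrobp. The 10 genes cover different parts of that programme. Cst7 (cystatin F) inhibits lysosomal cysteine proteases, Itgax (CD11c) is an integrin chain and Clec7a (dectin-1) a receptor for β-glucan. Gpnmb is a glycoprotein of lysosomes and the cell surface, Lgals3 (galectin-3) binds β-galactosides, for example on damaged lysosomes, and Spp1 (osteopontin) is a secreted integrin ligand. Cd9 is a tetraspanin of many cell types, Csf1 a ligand of the receptor Csf1r on which microglia depend, Lpl the lipase that releases fatty acids from lipoproteins, and Axl a receptor tyrosine kinase that recognises phosphatidylserine through the bridging ligand Gas6. Cd9, Csf1, Lpl, Axl and Spp1 are also made by other cells of the brain. In bulk tissue, a change in the number of cells of a type and a change in the RNA per cell cannot be told apart.

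A WT library held 16452173 to 20602274 counts, an APP/PS1 library 15925432 to 20703587 and an APP/PS1/FTnKO library 16479413 to 21030935. Their RNA integrity numbers (RIN) were 8.5 to 8.8, 7.7 to 8.7 and 7.6 to 8.7 in the same order. App, which includes reads of the transgene as far as they align, was at 1534 ± 51.2 CPM (counts scaled to the size of the library, mean ± SD, n = 5) in WT and 2897 ± 283 CPM (n = 6) in APP/PS1 mice. Fntb was at 22.2 ± 8.60, 20.2 ± 8.06 and 11.8 ± 2.76 CPM in WT, APP/PS1 and APP/PS1/FTnKO mice. Its medians were 16.9, 15.8 and 12.6 CPM. It ran from 14.1 to 32.2 CPM in WT, from 14.2 to 32.1 CPM in APP/PS1 and from 7.84 to 14.7 CPM in APP/PS1/FTnKO mice, so that the groups overlapped. The log2 fold change of APP/PS1/FTnKO over APP/PS1 mice was -0.77 ± 0.26 (SE), which did not pass the false discovery rate (FDR) of 0.05 (FDR = 0.251), and these counts cover all cells of the tissue. The female WT mouse 19622 stood apart. The summed level of 10 cerebellar markers was 4017 CPM in this mouse and 154 to 210 CPM in the other 17, and that of 7 markers of excitatory neurons was 753 CPM against at least 4069 CPM. The values below are therefore those of the other 17 mice, with WT n = 5, and 19622 is given beside them.

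Cst7, Itgax and Clec7a were close to absent in WT cortex and well expressed with the transgenes. Cst7 had 3, 1, 0, 0 and 0 counts in the 5 WT mice and 3 counts in 19622. In APP/PS1 mice it was at 11.7 CPM in the lowest, 32.3 CPM at the median and 53.4 CPM in the highest mouse, and APP/PS1/FTnKO mice had 5.93, 18.9, 27.9, 28.1, 28.5 and 28.9 CPM. Every mouse with the transgenes lay far above every WT mouse. For APP/PS1 mice the ratio to WT of the pooled counts, scaled to the size of the libraries, was 711 (95% interval 277 to 2611, counting error only). For APP/PS1/FTnKO mice it was 528 (206 to 1938). Fitted log2 fold changes were 9.24 ± 0.72 (SE, FDR = 1.2e-06) and 8.76 ± 0.74 (FDR = 4.2e-06), and they depend on the few WT counts. Without WT mouse 18944, which held 3 of these counts, they were 10.5 and 10.02.

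Itgax was at 0.122, 0.222, 0.350, 0.592 and 0.620 CPM in the WT mice. It was at 7.88, 18.9 and 26.3 CPM in the lowest, median and highest APP/PS1 mouse and at 2.97, 18.3 and 23.8 CPM in APP/PS1/FTnKO mice. The groups with the transgenes did not overlap the WT mice, nor 19622 at 0.755 CPM. The log2 fold change to WT was 5.47 ± 0.48 in APP/PS1 (FDR = 5.8e-06) and 5.25 ± 0.48 in APP/PS1/FTnKO mice (FDR = 1.2e-05). Clec7a was at 0.122 to 0.556 CPM in WT, with a median of 0.250 CPM. Its lowest, median and highest values were 4.70, 10.9 and 17.4 CPM in APP/PS1 and 2.45, 9.92 and 13.3 CPM in APP/PS1/FTnKO mice. Its log2 fold changes to WT were 5.06 ± 0.49 (FDR = 2.5e-05) and 4.74 ± 0.50 (FDR = 5.9e-05). WT mouse 19622 had 1.56 CPM of Clec7a, above the other WT mice and below all mice with the transgenes, and in a fit of all 18 mice the values were 4.42 (FDR = 1.0e-04) and 4.11 (FDR = 3.4e-04). The annotation used here (GENCODE vM21) types Clec7a as a polymorphic pseudogene.

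**Figure D1:**
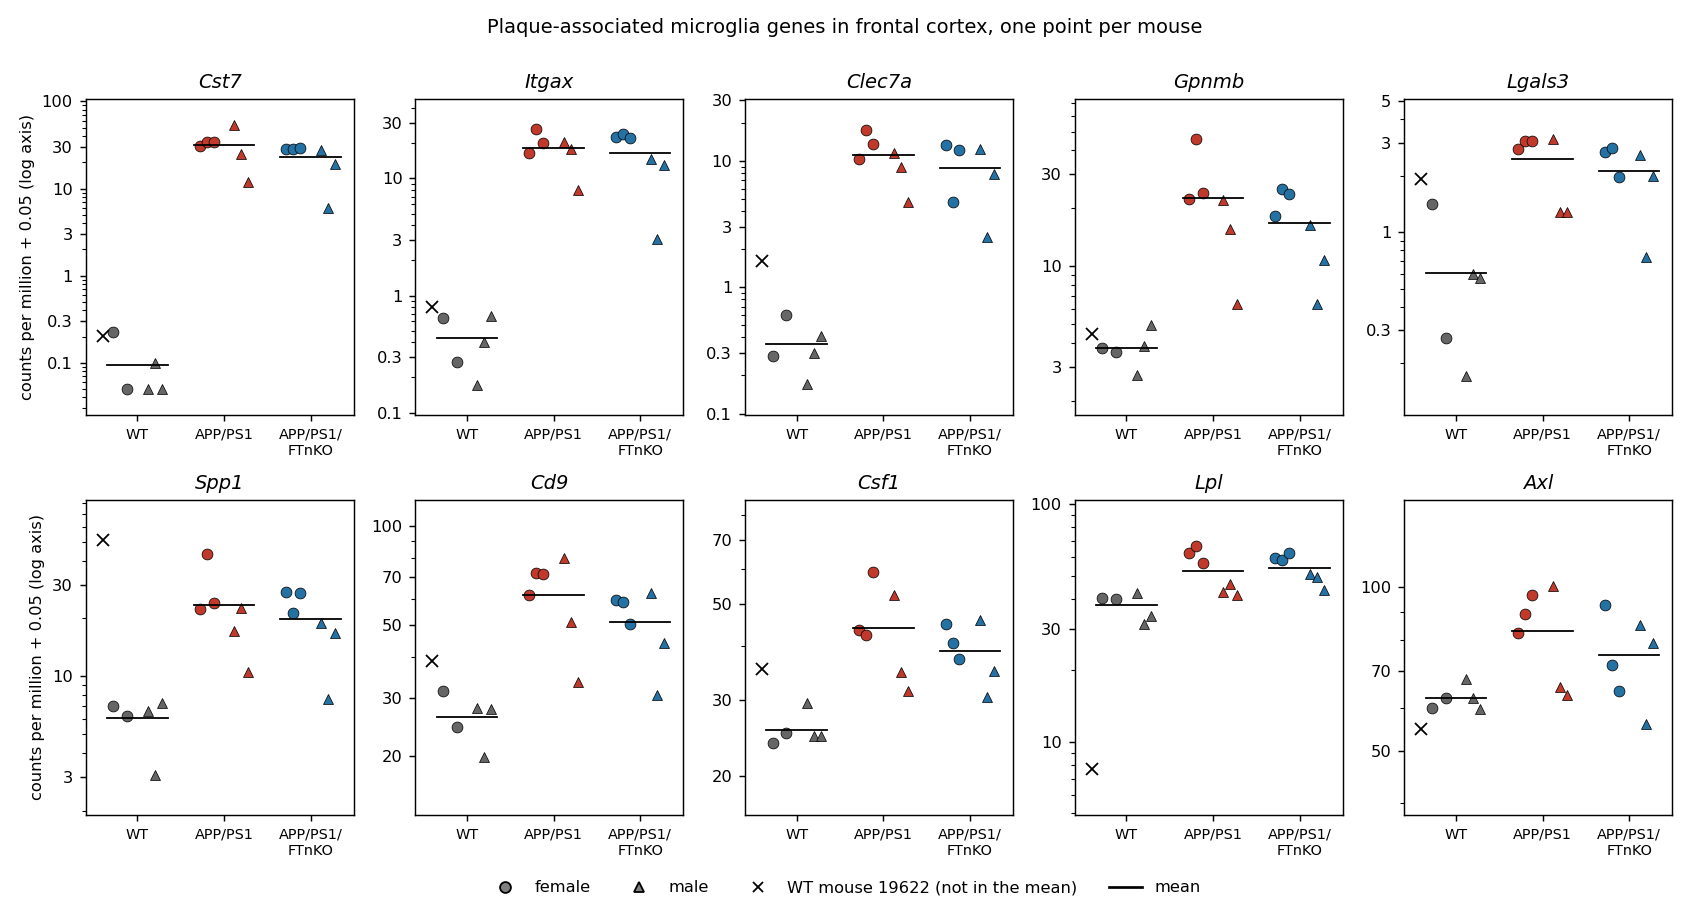
CPM plus 0.05 on a log axis for each of the 10 genes, with a point for each mouse (circles females, triangles males), a line for the mean and a cross for WT mouse 19622, which was scaled in a fit of all 18 mice and is not in the mean. For Cst7, Itgax and Clec7a all mice with the transgenes lie above all WT mice. For Clec7a, 19622 lies at 1.56 CPM and the lowest mouse with the transgenes at 2.45 CPM. Lgals3, Lpl and Axl overlap between APP/PS1 mice and the WT mice other than 19622. For Spp1, Cd9 and Csf1 the cross of 19622 lies above the lowest APP/PS1 mouse.

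The sequences before the transcription starts of these 3 genes are shown because the genes rose most of the 10. They are the 250 bases before the RefSeq start on the strand of the gene (GRCm38.p6), and capitals mark matches to the motifs searched. Cst7 lies at chr2:150570165-150570414 on the plus strand, Itgax at chr7:128129300-128129549 on the plus strand and Clec7a at chr6:129472780-129473029 on the minus strand.
Cst7: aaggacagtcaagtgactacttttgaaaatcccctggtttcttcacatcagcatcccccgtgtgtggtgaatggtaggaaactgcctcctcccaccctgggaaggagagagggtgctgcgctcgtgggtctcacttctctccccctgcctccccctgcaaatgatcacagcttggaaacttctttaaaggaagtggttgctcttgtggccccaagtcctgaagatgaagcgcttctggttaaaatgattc
Itgax: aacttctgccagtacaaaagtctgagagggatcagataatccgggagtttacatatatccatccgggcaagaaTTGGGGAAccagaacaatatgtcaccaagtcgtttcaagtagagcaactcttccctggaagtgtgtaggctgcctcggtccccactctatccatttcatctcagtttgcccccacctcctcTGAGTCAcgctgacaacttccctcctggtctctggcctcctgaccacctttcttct
Clec7a: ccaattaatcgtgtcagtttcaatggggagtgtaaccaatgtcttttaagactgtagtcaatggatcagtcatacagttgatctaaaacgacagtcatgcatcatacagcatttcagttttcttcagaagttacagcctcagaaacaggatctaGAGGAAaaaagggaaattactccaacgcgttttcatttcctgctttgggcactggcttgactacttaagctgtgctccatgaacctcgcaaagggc
In Itgax the capitals are a C/EBP match (TTGNGNAA) and, nearer to the start, an AP-1 match (TGANTCA), and in Clec7a they are the PU.1 core GAGGAA. These letters, the E-box CACGTG, the M-box CATGTG and an NF-kB motif were searched on both strands in windows of 300 bases, of which 50 follow the start, and no matches overlapped each other. Windows were given for 9 of the 10 genes, and Lpl was not among them. The AP-1 letters were in the windows of 3 of the 9 genes (Cst7, Gpnmb and Itgax) and in 7.81% of all 32851 windows. Their matches are set side by side here with 10 bases on each side, all on the plus strand.
Cst7, chr2:150570399-150570425: ctggttaaaaTGATTCAgcaagaaacc
Gpnmb, chr6:49036516-49036542: caggggcaagTGACTCAtgagcacgag
Itgax, chr7:128129484-128129510: ccacctcctcTGAGTCAcgctgacaac
The match in Cst7 crosses the start and that in Gpnmb begins 9 bases into the transcript. The PU.1 core was in the windows of Axl, Clec7a and Spp1 and in 28.3% of all windows, and the C/EBP letters in those of Itgax and Spp1 and in 13.3%. The M-box was in Cd9 (14.2% of all windows), the NF-kB motif in Csf1 (0.411%) and the E-box in none of the 9 (7.15%). A match of letters does not show that a factor binds there.

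Gpnmb, Lgals3 and Spp1 were expressed at low levels in WT mice and rose with the transgenes. Gpnmb was at 2.68, 3.56, 3.73, 3.80 and 4.91 CPM in WT mice and at 4.43 CPM in 19622. Its lowest, median and highest values were 6.35, 22.2 and 45.6 CPM in APP/PS1 and 6.33, 17.2 and 25.0 CPM in APP/PS1/FTnKO mice, with no overlap with WT. The log2 fold change to WT was 2.41 ± 0.34 (FDR = 7.8e-04) and 1.98 ± 0.34 (FDR = 0.00512). Spp1 was at 3.00, 6.17, 6.58, 6.98 and 7.24 CPM in WT. It reached 10.5, 22.5 and 43.2 CPM in the lowest, median and highest APP/PS1 mouse and 7.53, 20.2 and 27.3 CPM in APP/PS1/FTnKO mice. These values did not overlap those of the 5 WT mice, but 19622 had 51.5 CPM, more than any other mouse. Its log2 fold changes to WT were 1.84 ± 0.28 (FDR = 0.00133) and 1.61 ± 0.28 (FDR = 0.0052), and in a fit of all 18 mice 0.96 (FDR = 0.353) and 0.73 (FDR = 0.399).

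Lgals3 was the weakest of the 10 genes in the mice with the transgenes. It had 2, 4, 10, 11 and 23 counts in the WT mice, which are 0.122, 0.222, 0.517, 0.550 and 1.36 CPM. APP/PS1 mice had 1.23, 2.87 and 3.10 CPM in the lowest, median and highest mouse, and APP/PS1/FTnKO mice 0.684, 2.22 and 2.77 CPM. WT mouse 18944 lay within the range of both groups, so that they overlapped WT, and so did 19622 at 1.86 CPM. The log2 fold change to WT was 2.04 ± 0.42 (FDR = 0.0168) in APP/PS1 and 1.84 ± 0.42 (FDR = 0.0227) in APP/PS1/FTnKO mice. Both calls were lost without WT mouse 19053, with FDR = 0.0671 and 0.0716, and the second was also lost without APP/PS1/FTnKO mouse 16974 (FDR = 0.0594).

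Cd9, Csf1, Lpl and Axl were well expressed in WT cortex and differed by less. Cd9 was at 19.7, 24.4, 27.7, 27.8 and 31.3 CPM in WT mice, 33.6, 66.6 and 80.2 CPM in the lowest, median and highest APP/PS1 mouse and 30.5, 54.5 and 62.6 CPM in APP/PS1/FTnKO mice. The 5 WT mice and the APP/PS1 mice did not overlap, while the lowest APP/PS1/FTnKO mouse lay below the highest WT mouse. WT mouse 19622 had 38.9 CPM, above the lowest mouse of both groups with the transgenes. Cd9 rose in both groups, with a log2 fold change of 1.20 ± 0.19 (FDR = 0.0020) for APP/PS1 and 0.93 ± 0.19 (FDR = 0.0137) for APP/PS1/FTnKO mice, and the second call was lost without WT mouse 19053 (FDR = 0.0525). The 2 annotated genes that overlap Cd9 on the other strand held 80 and 13 counts in all mice together. Csf1 was at 23.8, 24.7, 24.7, 25.2 and 29.4 CPM in WT. It was at 31.4, 42.9 and 59.2 CPM in the lowest, median and highest APP/PS1 mouse and at 30.3, 38.9 and 45.7 CPM in APP/PS1/FTnKO mice, with no overlap with WT. Its log2 fold change was 0.76 ± 0.14 (FDR = 0.00664) and 0.59 ± 0.14 (FDR = 0.0276), and the latter was lost without any 1 of 6 mice (16974, 18943, 18944, 19053, 19718 or 19721), with an FDR of up to 0.0865.

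Lpl was at 31.3, 33.9, 39.9, 40.1 and 42.2 CPM in WT mice and at 7.60 CPM in 19622. The lowest, median and highest values were 41.3, 51.3 and 67.1 CPM in APP/PS1 and 43.7, 54.8 and 62.5 CPM in APP/PS1/FTnKO mice. The lowest APP/PS1 mouse fell just below the highest WT mouse, and APP/PS1/FTnKO mice did not overlap WT. Lpl rose, with log2 fold changes of 0.44 ± 0.08 (FDR = 0.0075) and 0.49 ± 0.08 (FDR = 0.00406). Without sex in the model the first was 0.49 and no longer called (FDR = 0.0618), where 1.64% of all genes were called. With all 18 mice the values were 0.68 and 0.72 and neither was called (FDR = 0.272 and 0.159). Axl was at 59.5 to 67.8 CPM in WT, at 63.4, 85.8 and 100.5 CPM in the lowest, median and highest APP/PS1 mouse and at 56.1, 75.5 and 92.6 CPM in APP/PS1/FTnKO mice. Both groups overlapped WT, and 19622 had 54.8 CPM, below all other mice. Axl had a log2 fold change of 0.40 ± 0.13 (FDR = 0.170) and 0.25 ± 0.13 (FDR = 0.263) and was not called in either comparison. Without the filter on low counts it was called in APP/PS1 against WT (0.40, FDR = 0.0248), where 1.36% of 33121 genes were called, and not in APP/PS1/FTnKO against WT (0.25, FDR = 0.191).

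In APP/PS1 against WT mice 9 of the 10 genes were thus called higher and none lower, where 1.5% of the 17414 tested genes were called in either direction and 1.32% were called higher. Cst7, Itgax, Clec7a and Lgals3 had too few WT counts and passed the filter only through the mice with the transgenes. The numbers of calls and of genes without overlap thus rest in part on genes let in by the groups where they were high. Without the filter all 10 were called, where 1.36% of 33121 genes were called. The median log2 fold change of the 10 genes was 1.94, and that of all tested genes was close to 0 (-0.0023). Against WT, APP/PS1/FTnKO mice had the same number of calls, all higher, where 3.87% of all genes were called and 2.22% were called higher, with a median of 1.73. Both comparisons share the 5 WT mice. For 7 genes in each comparison every mouse with the transgenes lay above every WT mouse, where 1.71% and 2.75% of all genes did so. With 19622 among the WT mice 4 and 5 genes did so, where 1.28% and 1.99% of all genes did. With all 18 mice 6 genes were called in APP/PS1 mice (Spp1, Lpl and Lgals3 were lost) and 5 in APP/PS1/FTnKO mice (Csf1 was lost as well), where 1.2% and 1.51% of all genes were called. With RIN as a covariate, Csf1 (0.53, FDR = 0.0788), Lpl (0.37, FDR = 0.0938) and Lgals3 (1.54, FDR = 0.20) were no longer called in APP/PS1 against WT, so that 6 genes were left, where 0.482% of all genes were called. In APP/PS1/FTnKO against WT all 9 calls were kept with RIN, the weakest being Csf1 and Lgals3 (both FDR = 0.0468), where 2.23% of all genes were called.

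**Figure D2:**
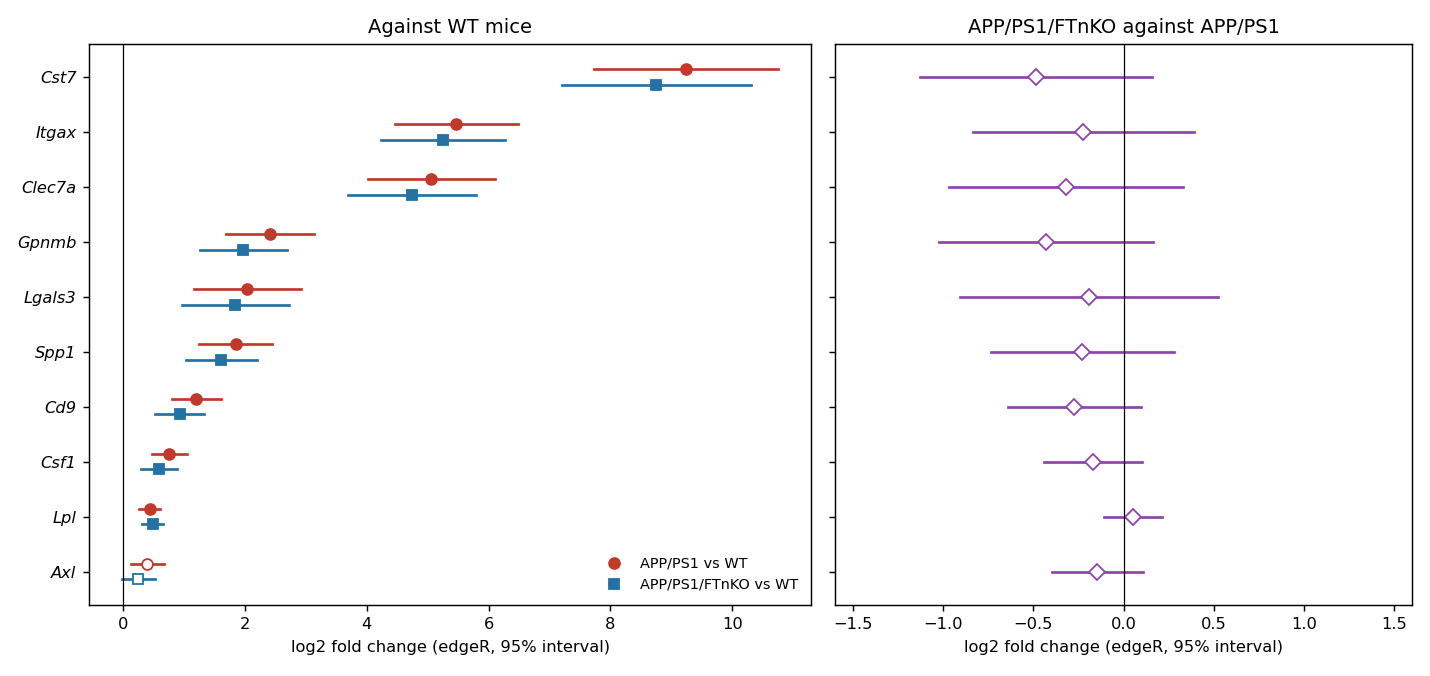
Log2 fold changes of the 10 genes with their 95% intervals, against WT on the left and for APP/PS1/FTnKO over APP/PS1 on the right, where filled symbols mark an FDR below 0.05. Against WT the values run from 9.24 for Cst7 to 0.40 for Axl in APP/PS1 mice, and on the right all 10 intervals include 0.

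The order of the genes by level also differed between the genotypes. Per kilobase of exon, WT levels were highest for Cd9 (12.8 ± 2.13 CPM per kb) and Axl (12.4 ± 0.656), which did not differ beyond their spread. They were followed by Csf1 (4.84 ± 0.417), Spp1 (3.64 ± 1.05) and Lpl (3.58 ± 0.444), the last 2 of which lay within each other's spread, and by Gpnmb (0.573 ± 0.122), Lgals3 (0.298 ± 0.262), Clec7a (0.116 ± 0.0621), Itgax (0.0794 ± 0.0460) and, in last place, Cst7 (0.0461 ± 0.0780). The last 4 lay within the spread of their neighbours. In APP/PS1 mice Cst7 was level with Cd9 (31.9 ± 13.8 and 30.1 ± 8.31 CPM per kb), ahead of Axl (16.5 ± 3.11) and Spp1 (14.1 ± 6.64). Csf1 (8.31 ± 1.98) stood between these and a group of 4 with like levels, Lpl (5.02 ± 1.03), Clec7a (4.20 ± 1.62), Itgax (3.79 ± 1.26) and Gpnmb (3.47 ± 2.0), and Lgals3 (1.29 ± 0.485) came last. In APP/PS1/FTnKO mice Cd9 (24.9 ± 5.96) and Cst7 (23.4 ± 9.32) again led within each other's spread, and Lgals3 (1.11 ± 0.413) was again lowest.

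To ask whether deletion of FT in forebrain neurons changed these genes, APP/PS1/FTnKO mice were compared with APP/PS1 mice. None of the 10 genes was called by edgeR, none had an unadjusted p below 0.05, and DESeq2 and limma-voom called none, where 0.327% of all genes were called by edgeR, 1.56% of those with an adjusted p by DESeq2, and 11.5% had an unadjusted p below 0.05. Limma-voom called 48 genes among all. The fitted values of 9 of the 10 were below 0, as were those of 50.5% of all genes, and the median of the 10 was -0.23. Cst7 had a log2 fold change of -0.49 with a 95% interval of -1.13 to 0.16 (FDR = 0.598), Gpnmb of -0.43 (-1.02 to 0.16) and Clec7a of -0.32 (-0.97 to 0.33). The intervals were -0.64 to 0.10 for Cd9 (-0.27), -0.74 to 0.28 for Spp1 (-0.23), -0.83 to 0.39 for Itgax (-0.22) and -0.91 to 0.52 for Lgals3 (-0.19). They were narrower for Csf1 (-0.17, from -0.44 to 0.10), Axl (-0.15, from -0.40 to 0.11) and Lpl (0.05, from -0.11 to 0.21). The groups overlapped for all 10 genes, where 0.597% of all genes were higher and 0.373% lower in every APP/PS1/FTnKO mouse. The intervals of Cst7 and Gpnmb reach below -1 on the log2 scale and above 0, so that a difference of that size is not settled by these 12 mice. With RIN as a covariate the values were -0.26 for Cst7, -0.23 for Gpnmb, -0.16 for Clec7a and Spp1, -0.13 for Cd9 and Itgax, -0.07 for Csf1, -0.04 for Axl, 0.02 for Lgals3 and 0.08 for Lpl, and none was called. With 1 mouse left out in turn no gene of the 10 was called, where 10 to 81 genes among all were called, and the values of the 10 moved both ways. Cst7 ran from -0.65 (without 16974) to -0.15 (without 16975), Gpnmb from -0.60 (without 19744) to -0.20 (without 19554) and Clec7a from -0.56 (without 16974) to -0.14 (without 19394). Cd9 ran from -0.39 to -0.13 and Lgals3 from -0.35 to 0.03 (both without 16974 and 16975 in that order), Spp1 from -0.35 (without 19744) to -0.04 (without 19554) and Itgax from -0.33 (without 19744) to 9.6e-06 (without 18973). The ranges were -0.25 to -0.08 for Csf1, -0.21 to -0.06 for Axl and 0.02 to 0.10 for Lpl.

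The summed level of 12 genes used here as markers of all microglia was 324 to 369 CPM in WT, 457 to 1027 CPM in APP/PS1 and 380 to 711 CPM in APP/PS1/FTnKO mice. Against WT, 9 of the 12 were called higher in APP/PS1 and 7 in APP/PS1/FTnKO mice, where 1.32% and 2.22% of all genes were called higher. The 12 did not rise alike. From WT to APP/PS1 the mean of Ctss went from 64.4 to 172 CPM and that of C1qa from 39.2 to 108 CPM. Aif1 went from 8.42 to 10.8 CPM and Itgam from 6.60 to 7.87 CPM. The sum may thus hold part of the plaque-associated programme, which division by it would remove, and this was not tested. After division by this sum in each mouse, the mean of Cst7 was still 322 times, that of Itgax 23.0 times and that of Clec7a 16.9 times the WT mean in APP/PS1 mice, in place of 692, 47.7 and 36.3 times before. For Gpnmb the ratio was 2.81, for Lgals3 2.03 and for Spp1 1.91. Cd9 came to 1.13 times, and Csf1 (0.831), Lpl (0.704) and Axl (0.646) came to less than the WT mean. Cst7, Itgax, Clec7a and Gpnmb lay above WT in every APP/PS1 mouse after this division, as did 0.247% of all genes in APP/PS1 and 0.23% in APP/PS1/FTnKO mice. Lpl and Axl lay below WT in every APP/PS1 mouse, as did 70% of all genes, since division by a rising sum lowers every gene that does not rise with it. In APP/PS1/FTnKO mice Spp1 was above WT in every mouse as well, with a ratio of 1.86, and Axl, at 0.692, was below, as were 31% of all genes. From APP/PS1 to APP/PS1/FTnKO mice the ratios after division were 0.869 for Cst7 to 1.21 for Lpl, and no gene of the 10 was without overlap.

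**Figure D3:**
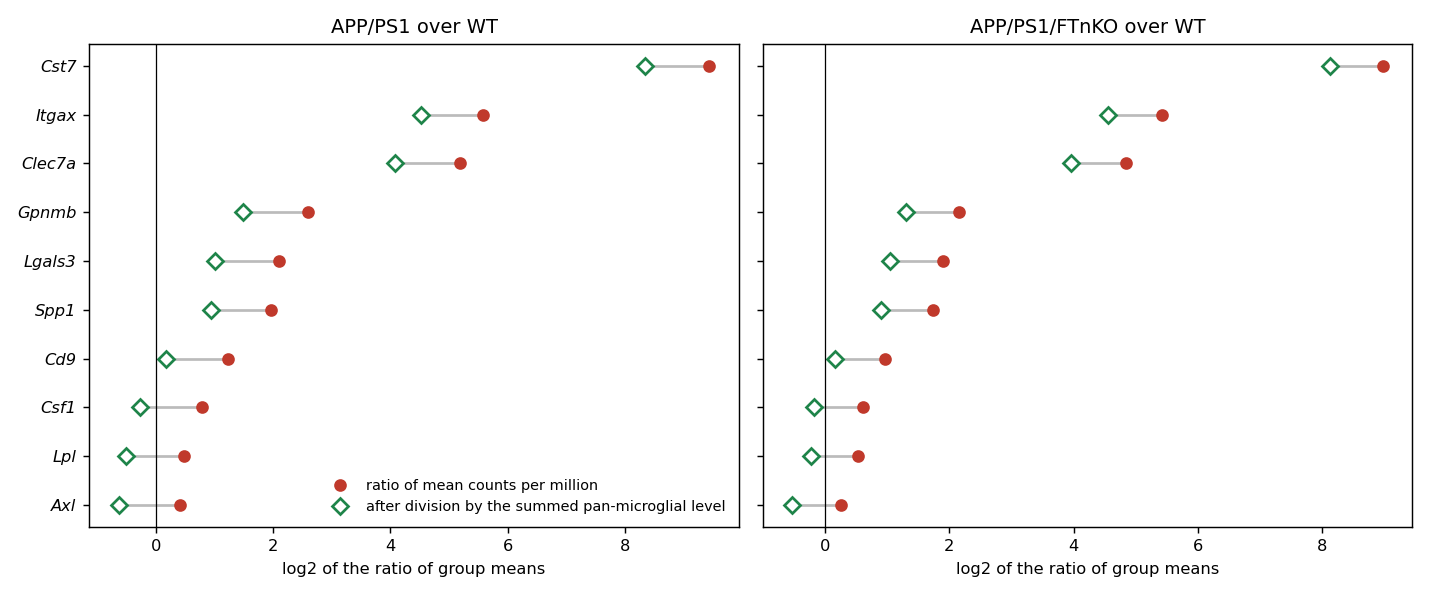
Log2 of the ratio of group means for the 10 genes, in CPM (filled circles) and after division by the summed level of 12 pan-microglial genes in each mouse (open diamonds), for APP/PS1 over WT and APP/PS1/FTnKO over WT. Cst7, Itgax and Clec7a stay far above 0 on both scales, Cd9 comes to lie near 0, and Csf1, Lpl and Axl fall below it.

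Markers of other cells that could bring some of these transcripts were examined in the same fit. Of 8 astrocyte, 8 oligodendrocyte, 7 endothelial and 7 fibroblast markers, 1, 0, 0 and 0 were called higher in APP/PS1 against WT, where 1.32% of all genes were called higher, and none lower. The astrocyte markers had a value above 0 for 7 of the 8, and their sum was 4943 to 5814 CPM in WT, 5137 to 7271 CPM in APP/PS1 and 5179 to 6711 CPM in APP/PS1/FTnKO mice. The 1 astrocyte gene called was Gfap, an intermediate filament that rises in reactive astrocytes, with a log2 fold change of 2.78 ± 0.35 (FDR = 3.2e-04). Of 8 markers of border macrophages, summed to 8.06 to 10.3 CPM in WT, 7.16 to 12.8 CPM in APP/PS1 and 6.09 to 12.4 CPM in APP/PS1/FTnKO mice, none was called in any of the 3 comparisons. The 13 markers of blood leukocytes summed to at most 5.90 CPM in any of the 17 mice, only 1 of them passed the filter on low counts, and it was not called. Of 6 choroid plexus markers, 5 were tested and none was called, and their sum was 463 CPM in the female APP/PS1 mouse 19554 and at most 76.3 CPM in the other 16. That mouse had the highest Spp1 and Gpnmb of the 17. Without it, the log2 fold changes to WT in APP/PS1 mice were 1.68 for Spp1 and 2.21 for Gpnmb.

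Among the 12 mice with the transgenes the same individuals were low or high for most of the 10 genes. The male APP/PS1/FTnKO mouse 18973 had the lowest value for 9 genes, and the male APP/PS1 mouse 19744 had the lowest for the remaining 1, Lpl, and was among the lowest 2 for 9. These were also the mice with the lowest summed pan-microglial level of the 12, 380 and 457 CPM. The female APP/PS1 mouse 19554 had the highest value for 5 genes and the male APP/PS1 mouse 16975 for 4. The spread around the means of genotype and sex was among the widest of all tested genes for Clec7a (percentile 97.8), Cst7 (97.7) and Itgax (97.2), and narrow for Lpl (percentile 17.2). As a description over these 12 mice, with the mean of each genotype and sex subtracted, the median Pearson r of the 45 pairs of genes was 0.73 (-0.23 to 0.96), where Cst7 and Cd9 formed the closest pair. Lpl went with the others least, with a median r of 0.07. All values come from the same libraries and share their RNA quality and microglial content.

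**Figure D4:**
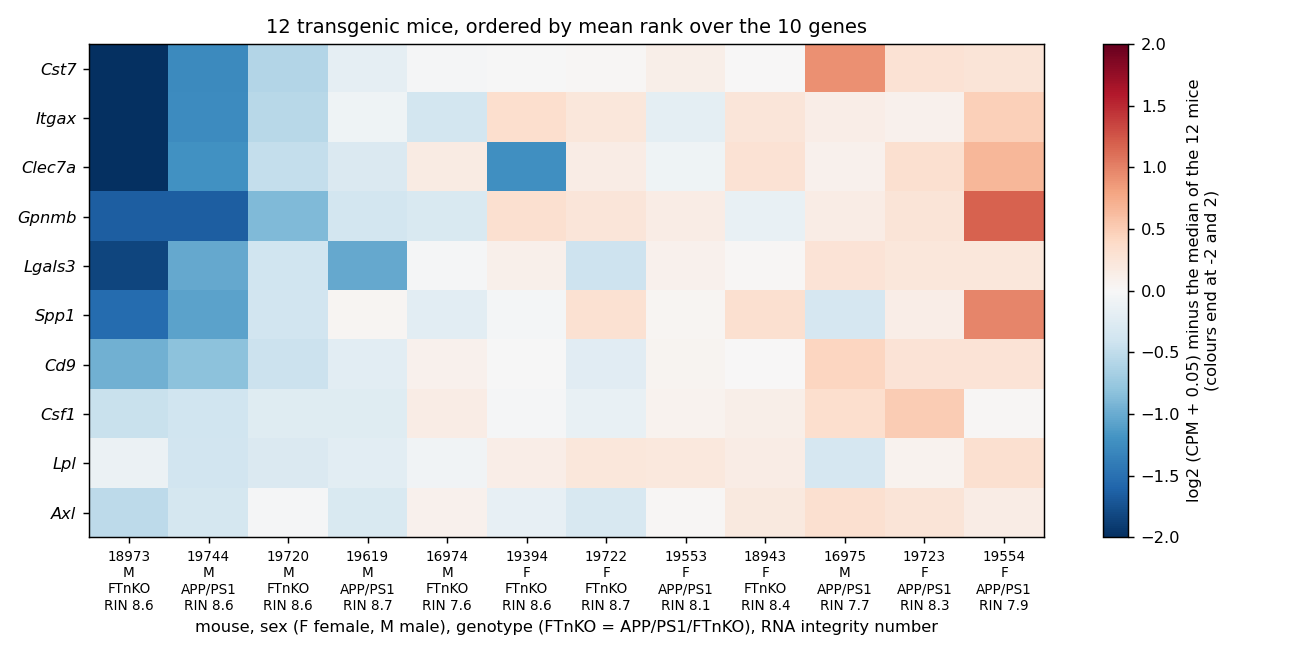
Log2 of CPM plus 0.05 for the 10 genes, relative to the median of the 12 mice with the transgenes, with mice ordered by their mean rank and given with sex, genotype and RNA integrity number. The first 2 columns, mice 18973 and 19744, are low for nearly all genes, and the row of Lpl is nearly flat.

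RNA integrity differed between the genotypes. The median RIN was 8.7 in WT, 8.2 in APP/PS1 and 8.6 in APP/PS1/FTnKO mice, and mice 18973 and 19744 had a RIN of 8.6 and mice 19554 and 16975 of 7.9 and 7.7. Mouse 16974, with the lowest RIN of the 12 (7.6), had a mean rank of 6.7 over the 10 genes, counted from 1 for the lowest level. Mice 19394 and 19722, with 8.6 and 8.7, had mean ranks of 7.0 and 7.1. Mice 19720 and 19619, also with 8.6 and 8.7, had mean ranks of 3.7 and 4.6. The mean rank was 7.6 for 19553 (RIN 8.1), 8.6 for 18943 (8.4) and 9.9 for 19723 (8.3). In the fit with RIN, genotype and sex, all 10 genes had a negative coefficient per unit of RIN, as did 51.7% of all genes. It was called for Axl (-0.48 ± 0.12, FDR = 0.0228), Cd9 (-0.67 ± 0.17, FDR = 0.0248) and Csf1 (-0.47 ± 0.14, FDR = 0.0416), where 8.4% of all genes were called, and had an unadjusted p below 0.05 for 7, as for 25.6% of all genes. In this fit the 6 genes that remained called in APP/PS1 against WT were Cst7, Itgax, Clec7a, Gpnmb, Spp1 and Cd9. The part of RIN in the differences between genotypes was not tested further.

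The design, with 3 females and 3 males of each genotype, also allowed a comparison of the sexes in the mice with the transgenes. All 10 genes had a higher fitted level in females, as did 50.4% of all genes, with a median log2 fold change of 0.49. Only Lpl was called, at 0.42 ± 0.07 (FDR = 0.0288), where 0.0747% of all genes, 13 in number, were called and 9 of these 13 lie on the sex chromosomes. Lpl was at 56.4, 62.2 and 67.1 CPM in the female and 41.3, 42.6 and 46.2 CPM in the male APP/PS1 mice. Among APP/PS1/FTnKO mice it was at 58.5, 59.6 and 62.5 CPM in females and 43.7, 49.3 and 51.0 CPM in males. The 6 females thus lay above all 6 males, as for 0.212% of all genes. In WT mice the 2 females (39.9 and 40.1 CPM) lay within the range of the 3 males (31.3 to 42.2 CPM). The difference between the sexes was 0.16 ± 0.11 in WT, and that with the transgenes exceeded it by 0.26 ± 0.13, which was not called (FDR = 1.0). The call of Lpl was lost in 11 of the 17 fits that left out 1 mouse, with an FDR of up to 0.129, and in the fit of all 18 mice, in which its value was 0.42 (FDR = 1.0) and 0.0463% of all genes were called. It was kept in a fit of only the 12 mice with the transgenes (0.42 ± 0.06, FDR = 0.0182). After division by the pan-microglial sum the sexes overlapped.

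Gpnmb (1.03 ± 0.27, FDR = 0.306), Spp1 (0.82 ± 0.25, FDR = 0.375) and Itgax (0.80 ± 0.29, FDR = 0.475) had the smallest p-values of the 10 genes after Lpl in the same edgeR comparison but were not called. Gpnmb was at 22.2, 23.8 and 45.6 CPM in female and 6.35, 15.5 and 22.2 CPM in male APP/PS1 mice, so that the lowest female and the highest male were at the same level. Among APP/PS1/FTnKO mice Gpnmb was at 18.1, 23.7 and 25.0 CPM in females and 6.33, 10.8 and 16.3 CPM in males, without overlap. Groups of 3 mice separate readily, and the share of all genes that did so within this genotype was not determined. This holds for Spp1 and Itgax below as well. Spp1 was at 22.5, 24.0 and 43.2 CPM in female and 10.5, 17.3 and 22.5 CPM in male APP/PS1 mice. It was at 21.4, 27.2 and 27.3 CPM in female and 7.53, 16.8 and 19.0 CPM in male APP/PS1/FTnKO mice, where the 3 females lay above the 3 males, again without a share of all genes to set beside it. Itgax was at 22.0, 22.4 and 23.8 CPM in female and 2.97, 12.9 and 14.6 CPM in male APP/PS1/FTnKO mice, and overlapped between the sexes in APP/PS1 mice. Without the filter on low counts Lpl, Gpnmb, Spp1 and Itgax were all called, where 0.993% of 33121 genes were called. App, whose counts hold the endogenous gene as well, had a log2 fold change of 0.25 ± 0.09 for females over males (FDR = 0.452), which was not called. No gene of the 10 showed a called difference between the sexes in its response, neither for APP/PS1/FTnKO against APP/PS1 (0 with an unadjusted p below 0.05, edgeR) nor for APP/PS1 against WT (1 with an unadjusted p below 0.05), and 0% of all genes were called in either.

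**Figure D5:**
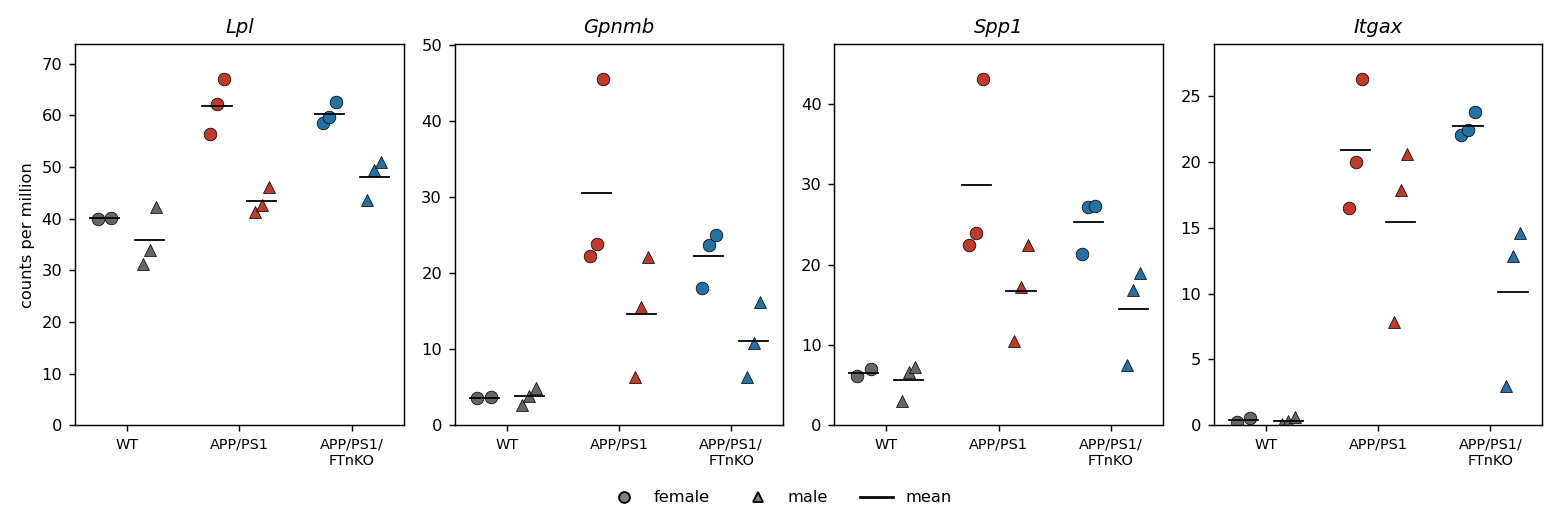
CPM of Lpl, Gpnmb, Spp1 and Itgax by genotype and sex, with a point for each mouse and a line for each mean, without WT mouse 19622. For Lpl the 6 females with the transgenes lie at 56.4 to 67.1 CPM and the 6 males at 41.3 to 51.0 CPM. The other genes overlap between the 6 females and the 6 males taken over both genotypes, though not within APP/PS1/FTnKO mice. The share of all genes that separate the sexes within that genotype was not determined.

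Of 28 further genes known from plaque-associated microglia, 17 were called higher and none lower in APP/PS1 against WT, where 1.32% of all genes were called higher, and their median was 1.24. They included the lipid receptor Trem2 (2.37 ± 0.26), its adaptor Tyrobp (2.28 ± 0.25), the lysosomal protease Ctsd (1.38 ± 0.16) and the lysosomal glycoprotein Cd68 (2.02 ± 0.25). Of 24 tested ligands, receptors and relatives of the 10 genes, 6 were called higher, with a median of 0.26. Besides Trem2 and Tyrobp these were led by Ctsc (0.76 ± 0.14), a protease that cystatins of this kind can restrain, and Itgb2 (1.12 ± 0.22), the β-chain that pairs with Itgax. Csf1r, the receptor of Csf1 and named after its values were seen, rose by 0.58 ± 0.11 (FDR = 0.0119). Of 17 tested transcription factors of microglia and lysosomal genes 3 were called higher, Irf8 (1.54 ± 0.22), Cebpa (0.72 ± 0.17) and Spi1 (0.94 ± 0.23), and the median was 0.18. Spi1 encodes PU.1. Of 14 genes of homeostatic microglia 7 were called higher and none lower, with 2 fitted values below 0 and a median of 0.52. Those called included Fcrls (1.5 ± 0.18), Olfml3 (0.93 ± 0.16) and Siglech (0.70 ± 0.13). For APP/PS1/FTnKO over APP/PS1 none of the genes of these lists was called, where 0.327% of all genes were called, with medians of -0.21 for the 28 genes, -0.11 for the partners, -0.20 for the transcription factors and -0.23 for the homeostatic genes, beside -0.23 for the 10.

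Of 17404 tested genes outside the 10, those most alike in pattern to Cst7, Itgax, Clec7a, Gpnmb, Axl and Lgals3 were ranked by Pearson's r with the mean log2 CPM of these 6 over the 12 mice with the transgenes, after subtraction of the mean of each genotype and sex. Csf1, Cd9, Lpl and Spp1 were left out as genes also expressed outside microglia. Axl was kept although other cells make it too, so that the mean of the 6 is not purely microglial. The 10 leading genes were Cmtm5 (0.987), Rbpms (0.985), Laptm5 (0.980), Trem2 (0.979), Elf4 (0.977), Cd63-ps (0.974), Ctss (0.968), Ctsd (0.968), S100b (0.967) and Tcirg1 (0.966). Without mice 18973 and 19744, the values of the 10 were 0.914 to 0.972. Cmtm5, Rbpms, Elf4 and S100b were not called in APP/PS1 against WT mice, and their log2 fold changes were 0.07, 0.55, 0.57 and 0.31. The list is a description of how these libraries vary together, and the reads of Cd63-ps and of its parent gene may not be told apart.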

How the data were processed

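The authors sequenced frontal cortical RNA as stranded mRNA libraries. Reads had been trimmed (Trimmomatic 0.33), mapped to GRCm38 (HISAT2 2.1.0) and assigned to genes (featureCounts), and the authors deposited unnormalized counts for each Ensembl gene. How the counting treated strand and multi-mapped reads, and with which annotation, was not given in the sources. All 18 columns were used.

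Tests were run in R 4.3.3 with the quasi-likelihood method of edgeR 4.0.16 on a single model of genotype and sex. Scaling was by TMM, genes were kept by filterByExpr (by genotype, minimum count 10), and p-values were adjusted by Benjamini-Hochberg over all 17414 genes at an FDR of 0.05. WT mouse 19622 was left out, as its cerebellar transcripts set it apart, and a fit of all 18 mice (17285 genes) was an alternative. The sexes were compared in a fit of the means of genotype and sex. Levels are TMM-scaled CPM, and levels per kilobase use exon lengths of GENCODE vM21. Promoter windows are from RefSeq. The other settings tried were RLE scaling, no filter, a stricter filter, a model without sex, RIN as a covariate, only the genotypes compared, a robust estimate of the spread, DESeq2 1.42.0, limma-voom (3.58.1) and each mouse left out in turn. The tests were checked on simulated data.

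The genes named are the 10 genes, Fntb and App as checks of the labels, up to 4 genes of each marker list by the smallest p in APP/PS1 against WT, and the 10 genes most alike in pattern. The 10 genes and the lists were chosen with earlier results of these data known. Mice of a genotype are separate animals, and numbers given to them here pair nothing. Values of some single genes are not reported here.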

Additional observations from a re-analysis of the deposited data

Results flagged for a closer look

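A sample lying far from the others of its group was looked for in 30 groups, with and without WT mouse 19622, and 6 values stood out. Chance gives about 1 in 20 groups where groups are independent. The groups here share mice and libraries, so that the number cannot be set against this rate. WT mouse 19622 had 51.5 CPM of Spp1, beside 3.00 to 7.24 CPM in the other 5 WT mice, 1.56 CPM of Clec7a, beside 0.122 to 0.556 CPM, and 7.60 CPM of Lpl, beside 31.3 to 42.2 CPM. The summed levels of oligodendrocyte and choroid plexus markers in this mouse were 10524 and 1374 CPM, beside 3658 to 5534 and 8.85 to 76.3 CPM in the other WT mice, and their part in these values was not tested. Without 19622, Spp1 was low in the male WT mouse 19718 (3.00 CPM, beside 6.17 to 7.24 CPM), Csf1 was high in the male WT mouse 19101 (29.4 CPM, beside 23.8 to 25.2 CPM) and Cst7 was high in the female WT mouse 18944 (0.177 CPM, which is 3 counts, beside 0 or 1 count in the others). The same mouse 18944 had the highest Lgals3 of the 5 WT mice, 1.36 CPM, which did not stand out by this measure.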

How the results depend on the processing

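In APP/PS1 against WT the 10 genes gave 9 calls, and 6 to 10 under the alternatives of the processing. The genes called among all tested moved from 261 to 454 with DESeq2 (406 with all 18 mice, added after the data were seen), 452 without a filter and 84 with RIN as a covariate. In APP/PS1/FTnKO against APP/PS1 the 10 genes gave 0 calls under every alternative run, while the genes called among all moved from 57 to 246 with DESeq2 (34 with all 18 mice), 2 in the edgeR fit of all 18 mice, 104 without a filter, 261 with RIN and 5 with only the genotypes compared. Lgals3 changed its sign there with RIN (0.0241, FDR = 0.981). In APP/PS1/FTnKO against WT, 9 calls became 5 with all 18 mice, and 674 genes among all became 1304 with DESeq2, 261 with all 18 mice and 388 with RIN. Between the sexes 1 call became 0 with all 18 mice, where 0.0463% of all genes were called, and 4 without a filter, where 0.993% were. Genes without overlap between APP/PS1 and WT were 7, and 4 with all 18 mice, where 1.71% and 1.28% of all genes did not overlap in that direction. The causes were not tested.

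With each mouse left out in turn, the calls among the 10 genes were 8 to 9, 0 and 6 to 9 in the 3 genotype comparisons and 0 to 1 between the sexes. Those among all genes were 124 to 465, 10 to 81 and 206 to 987. The 8 and the 6 were both without WT mouse 19053. In APP/PS1/FTnKO against APP/PS1, Lgals3 ran from -0.35 to 0.0261 and Itgax from -0.33 to 9.6e-06. No paired analysis was possible because the mice of the 3 genotypes carry no shared numbers in the labels. With 5 or 6 mice a group, and 2 to 23 counts of Lgals3 and 0 to 3 of Cst7 in a WT mouse, the depth limits the WT values of the weakest genes.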
